A study of Mus musculus with 54 samples.

Results

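Chromosome 7 of the mouse carried 1270 of the 22191 Hi-C calls analysed here, namely 451 loops and 250 domains of gemcitabine-resistant pancreatic cancer cells and 347 loops and 222 domains of parental pancreatic cancer cells. The chromosome was chosen by its surplus of resistant loops, with the loop counts of all chromosomes already known, so its loop counts, and all values read from the same calls, are given as a description and carry no test. The members are every loop and every domain that the deposited lists place on that chromosome. The resistant group was 3 samples of cells labelled gemcitabine resistant and given gemcitabine, and the parental group was 3 samples of cells labelled WT and given DMSO, the solvent. Both groups were cells of a primary pancreatic tumour of the mouse, and the labels name no clone and no further allele. Resistance and exposure to the drug went together, so the lists cannot tell them apart. Each condition had 1 list of loops and 1 list of domains, without values for single samples, so no replicate error can be given.

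Hi-C ligates stretches of DNA that are neighbours within the nucleus and reads both partners by sequencing. A chromatin loop is a pair of distant sites, its anchors, that meet more often than their surroundings, and many loops form where cohesin, a ring that extrudes DNA, halts at sites bound by CTCF. Other loops join a promoter to an enhancer. A topologically associating domain is a stretch of chromosome that contacts itself more than its neighbours, and its ends are called borders. Mouse chromosome 7 is rich in genes and holds large families of similar genes, among them olfactory and vomeronasal receptors, zinc finger factors, kallikreins and carcinoembryonic antigen genes, as well as several imprinted domains, where 1 parental copy of a gene is silent. Gemcitabine is a nucleoside analogue that blocks DNA synthesis and is a standard drug against pancreatic cancer.

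The promoters of 5 genes on chromosome 7 are shown because loops of 1 list only ended at them. Cebpa and Cebpg encode partner transcription factors of the C/EBP family and were joined to each other by a resistant-only loop. The Flt3l promoter, of a growth factor for blood progenitors, held a CTCF core motif and lay at an anchor of a resistant-only loop, which the gene's neighbour Aldh16a1 shared. Micalcl, a relative of the MICAL family, had 2 parental-only loops at its start, and Psmc4, which encodes an ATPase subunit of the proteasome, had a CTCF core motif in its promoter and a parental-only loop. The sequences come from RefSeq on GRCm38.p6, the assembly also called mm10, and run 5′ to 3′ on the gene's own strand from 250 bases before the start to 50 bases from it on. Capitals mark the CTCF core motif, and the 3 sequences without capitals hold no exact match to it on either strand. Near matches were not searched for and are not marked, so a lack of capitals does not show that a promoter has no CTCF-like site.

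Cebpa, plus strand, chr7:35119043-35119342: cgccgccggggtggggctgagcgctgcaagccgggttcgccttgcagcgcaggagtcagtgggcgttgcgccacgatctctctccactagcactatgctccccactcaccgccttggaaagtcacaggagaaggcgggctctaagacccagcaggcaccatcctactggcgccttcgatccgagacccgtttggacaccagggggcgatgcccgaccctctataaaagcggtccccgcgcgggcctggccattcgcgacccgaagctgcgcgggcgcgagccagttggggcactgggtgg
Cebpg, minus strand, chr7:35056517-35056816: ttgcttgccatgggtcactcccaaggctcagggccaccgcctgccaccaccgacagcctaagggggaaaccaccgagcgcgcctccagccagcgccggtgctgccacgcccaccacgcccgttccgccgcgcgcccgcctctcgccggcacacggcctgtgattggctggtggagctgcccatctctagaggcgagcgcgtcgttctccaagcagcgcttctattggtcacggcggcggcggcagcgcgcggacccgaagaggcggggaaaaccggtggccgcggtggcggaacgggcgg
Flt3l, minus strand, chr7:45136383-45136682: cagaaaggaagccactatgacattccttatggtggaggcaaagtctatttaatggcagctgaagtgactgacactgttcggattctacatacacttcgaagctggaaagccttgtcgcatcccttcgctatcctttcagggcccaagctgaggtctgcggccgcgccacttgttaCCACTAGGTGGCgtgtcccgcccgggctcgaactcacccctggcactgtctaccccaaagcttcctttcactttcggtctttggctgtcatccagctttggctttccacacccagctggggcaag
Micalcl, plus strand, chr7:112368058-112368357: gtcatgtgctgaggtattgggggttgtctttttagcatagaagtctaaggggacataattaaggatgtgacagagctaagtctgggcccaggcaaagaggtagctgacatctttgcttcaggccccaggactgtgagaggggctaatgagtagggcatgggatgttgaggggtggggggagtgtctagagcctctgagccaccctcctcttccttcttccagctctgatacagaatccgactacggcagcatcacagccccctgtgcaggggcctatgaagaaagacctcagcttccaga
Psmc4, minus strand, chr7:28050043-28050342: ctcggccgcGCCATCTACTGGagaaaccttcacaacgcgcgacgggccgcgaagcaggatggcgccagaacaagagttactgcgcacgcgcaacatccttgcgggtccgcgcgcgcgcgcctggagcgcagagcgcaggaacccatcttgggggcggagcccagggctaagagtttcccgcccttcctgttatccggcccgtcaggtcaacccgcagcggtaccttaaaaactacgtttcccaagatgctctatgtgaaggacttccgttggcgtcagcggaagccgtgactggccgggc

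The Cebpa and Cebpg promoters were 67.3% and 71.7% G and C, those of Flt3l and Psmc4 54.3% and 63.7%, and the Micalcl sequence 53.3%. The CTCF core motif, searched on both strands as an exact match to its degenerate consensus, stood in 0.557% of all 32851 mouse promoters of this length and in 0.681% of the 2790 promoters of chromosome 7. At anchors of resistant-only loops 5 of 235 promoters held it (2.13%), and at anchors of parental-only loops 5 of 178 (2.81%). For anchors of loops found in both lists the counts were 4 of 190 promoters with the resistant anchors and 4 of 174 with the parental anchors. The forkhead motif TGTTTAC, read on both strands, stood in 3.65% of all promoters and in 4.19% of those on chromosome 7. At anchors of resistant-only and parental-only loops 3.40% and 1.69% of promoters held it, 8 and 3 promoters. Alternative starts of a gene and overlapping starts of neighbouring genes are counted separately in all these shares, so the shares do not count separate sites. Mob2 alone gave 3 of the 8, and the rest, apart from that of Eed, were overlapping starts of predicted genes. The 3 parental promoters belonged to different genes. Among the 5 resistant-only promoters with the CTCF core, Pdzd9 was counted more than once. The resistant promoters with the forkhead motif included those of Eed, a subunit of the Polycomb complex that methylates histone H3, and Mob2, a regulator of NDR kinases. The parental ones included that of Ppfibp2, a liprin. The Hsd3b7 promoter, of an enzyme of bile acid synthesis, held the CTCF core. It lay at an anchor in both the resistant-only and the parental-only class, as did the promoter of a predicted gene with the core. A match shows only that these letters are in the promoter, and the anchor bins themselves were not searched.

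Resistant cells had 104 more loops than parental cells on chromosome 7, 451 against 347, a ratio of 1.30. All other chromosomes together had 6718 resistant and 6482 parental loops, 236 more, so 104 of the series' surplus of 340 loops lay on chromosome 7. The difference on chromosome 7 ranked 1 among 20 chromosomes and the ratio ranked 2, after chromosome X at 1.35. Resistant loops made up 56.5% of the loops of both lists on chromosome 7 (exact binomial 95% interval 53.0 to 60.0) and 50.9% on the other chromosomes (50.04 to 51.75). Such intervals cover counting error only, and the samples' read depth is unknown. In loops per Mb chromosome 7 had 3.11 in resistant cells, rank 4 of 20, and 2.39 in parental cells, rank 15.

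**Figure D1:**
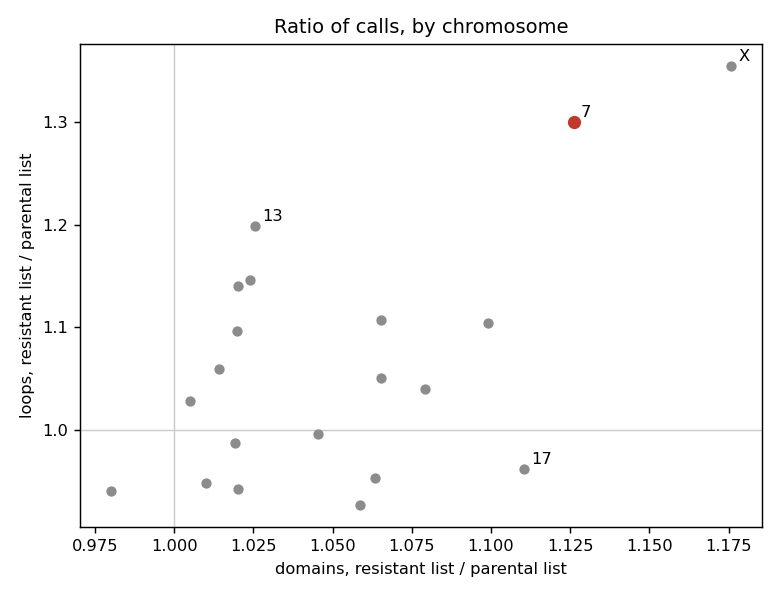
Ratio of resistant to parental loops (vertical axis) against ratio of resistant to parental domains (horizontal axis), with 1 point for each of 20 chromosomes and grey lines at a ratio of 1. Chromosome 7, in red, lies at 1.30 for loops and 1.13 for domains, and only chromosome X lies higher on both axes.

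Of the chromosome 7 loops 155 were found in both lists, meaning that each anchor lay within 10 kb of an anchor of the matching loop. That was 34.4% of the resistant loops (30.0 to 39.0) and 44.7% of the parental loops (39.4 to 50.1). The other 296 resistant loops and 192 parental loops are called resistant-only and parental-only below. Over the whole series 64.6% of resistant loops and 62.8% of parental loops had no partner. The parental share found in both lists ranked 2 among the 20 chromosomes and the resistant share ranked 13. Among loops found in both lists, the resistant call had the lower p in 49.0% (40.9 to 57.2), against 47.3% on the other chromosomes. In 185 of 296 resistant-only loops (62.5%) neither anchor lay within 10 kb of an anchor of a called parental loop, in 92 1 anchor did and in 19 both did. Among the parental-only loops the share with neither anchor near one of the other list was similar, 58.9%, and the numbers were 113, 66 and 13 of 192. No such shares are given here for the other chromosomes.

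The surplus was unevenly spread over span and strength. Loops longer than 250 kb numbered 71 in resistant cells and 31 in parental cells, 15.7% (12.5 to 19.4) and 8.93% (6.15 to 12.4) of their lists. On the other chromosomes they made up 19.3% of resistant and 19.98% of parental loops, so the parental share on chromosome 7 ranked 19 of 20 and the resistant share 15. Between 250 and 500 kb the ratio was 2.12 (55 and 26 loops), and above 500 kb it was 3.20 (16 and 5 loops). In the 3 classes of shorter span it lay between 1.19 and 1.22. The 25% of each list with the highest p, over the whole series, held 119 resistant and 62 parental loops of chromosome 7, 26.4% and 17.9% of them, against 24.96% and 25.36% on the other chromosomes. Among the 10% with the lowest p the counts were 53 and 39, a ratio of 1.36. Loops that were over 250 kb or in the 25% with the highest p numbered 160 in resistant and 88 in parental cells. Loops that were neither numbered 291 and 259, a ratio of 1.12 (0.947 to 1.33). This split was drawn after the values were seen. Loops that crossed a border of their own domain list numbered 29 in resistant and 11 in parental cells, 6.43% and 3.17% of the loops. On the other chromosomes the shares were 6.15% and 5.86%, so the parental share on chromosome 7 was the one that departed from them. The resistant list also held more borders.

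**Figure D2:**
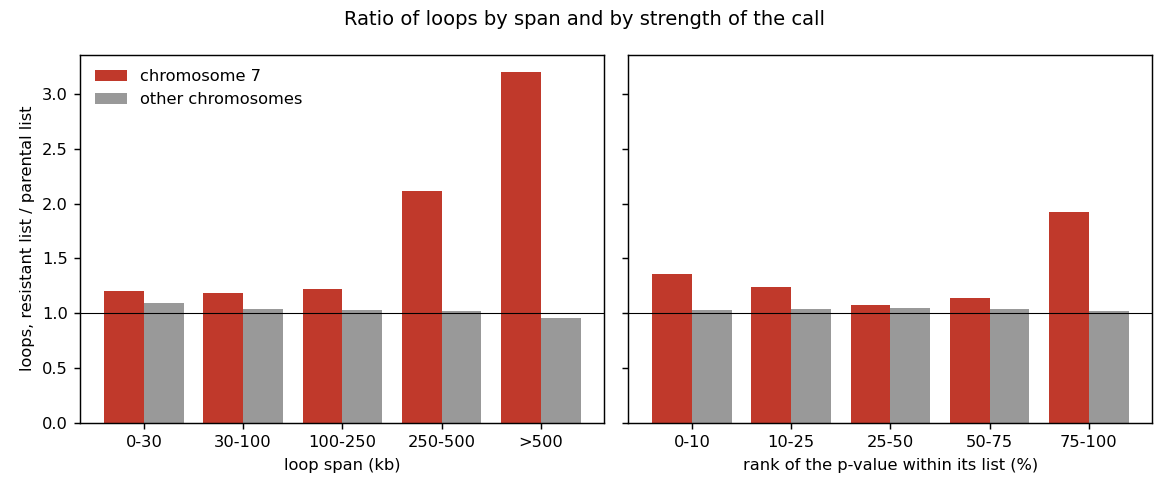
Ratio of resistant to parental loops by span (left) and by rank of the caller's p within its own list (right, strongest first), for chromosome 7 in red and all other chromosomes in grey, with a line at a ratio of 1. The grey bars lie between 0.958 and 1.09, and the red bars stand highest above 250 kb and in the weakest 25% of the calls.

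Along the chromosome the surplus was broad. In windows of 5 Mb, with each loop placed by its midpoint, 21 of 30 windows had more resistant loops, 4 had more parental loops and 5 had equal numbers. The summed excess of the 21 windows was 109 loops, of which the leading 3 windows gave 30. Of the 28 windows with at least 10 loops over both lists, 10 had at least 1.5 times as many resistant as parental loops, 35.7% against 19.3% of the 488 such windows of all chromosomes. The window at 95 to 100 Mb, with 27 and 18 loops, stood exactly at that ratio, and those at 105 to 110 Mb, with 16 and 11, and 45 to 50 Mb, with 27 and 19, stood just under it. None reached the ratio toward parental cells, against 11.5% of the windows of all chromosomes. Windows rich in loops in one list were rich in the other, with a Pearson r of 0.874 between resistant and parental loops over the 30 windows, which share a chromosome. The loop difference had an r of -0.19 with the number of genes and of -0.06 with the border difference over the same windows.

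**Figure D3:**
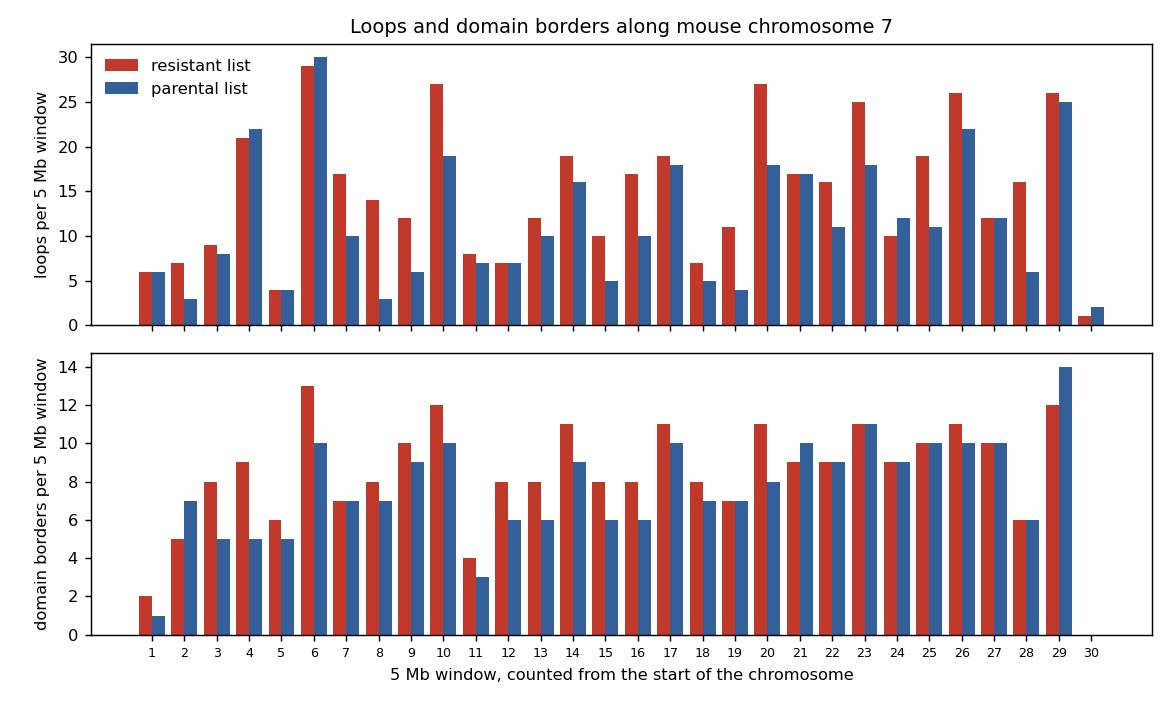
Loops (top) and domain borders (bottom) in the 30 windows of 5 Mb, with the resistant list in red to the left of the parental list in blue. Window 8, at 35 to 40 Mb, holds 14 resistant and 3 parental loops, window 28, at 135 to 140 Mb, 16 and 6, and window 20, at 95 to 100 Mb, 27 and 18.

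At the centromeric end the lists held nearly equal numbers of loops. From 0 to 30 Mb the resistant list held 76 and the parental list 73 loops, a ratio of 1.04, though the window of 5 to 10 Mb had 7 and 3. Single windows elsewhere were as even, such as 100 to 105 Mb (17 and 17) and 130 to 135 Mb (12 and 12). From 30 to 115 Mb no window had more parental loops, and the 17 windows of that run held 265 resistant and 184 parental loops. Within it the ratio was 1.84 from 30 to 50 Mb (70 and 38 loops), 1.27 from 50 to 90 Mb (99 and 78) and 1.41 from 90 to 115 Mb (96 and 68). From 115 Mb to the end it was 1.22 (110 and 90). The limits of these stretches were drawn after the counts were seen.

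The window of 35 to 40 Mb had 14 resistant and 3 parental loops, the largest excess on chromosome 7, and 3 of its resistant-only loops ended at Cebpa. Among the 50% of each list with the lowest p this window held 7 resistant loops and 1 parental loop. Cebpa encodes C/EBPα, a factor that drives differentiation of liver, fat and myeloid cells and restrains proliferation, and Cebpg encodes C/EBPγ, which lacks a transactivation domain and pairs with other C/EBP proteins. Cebpa (35119293 to 35121928, mm10) had 3 resistant-only loops and no parental loop, all from the bin at 35115001 to 35120000 that holds the promoter shown above. The loop of lowest p ran 50 kb to the bin at 35165001 to 35170000, with a caller's p of 2.7e-06. A second ran 60 kb to the bin at 35055001 to 35060000, which holds the Cebpg promoter, with a caller's p of 1.12e-05. The third ran 90 kb to the bin at 35025001 to 35030000, with a caller's p of 0.000105 and no protein-coding gene at its far end.

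Both lists held a loop that enclosed the pair of genes. This loop joined the bins at 35025001 to 35030000 and 35170001 to 35175000 over 145 kb, with a caller's p of 1.74e-10 in the resistant list and 2.01e-07 in the parental list. Of the 3 Cebpa loops of resistant cells, 2 had their far end in or beside a bin that anchored the shared loop, and the loop to Cebpg ended inside it. A p-value places a call within its own list only, so the pair of values is no measure of a stronger loop in 1 condition. Further resistant-only loops ran from next to the shared loop's right anchor to a bin at 35260001 to 35265000 (85 kb, caller's p 1.07e-06) and from next to its left anchor to the same bin (240 kb, caller's p 0.00021). A resistant border with no parental partner lay 151 kb from the start of Cebpa, just beyond that bin. In parental cells the domain reached from 34670001 to 35870000 without an inner border, and 10 resistant loops against 2 parental loops lay inside it, the largest difference among parental domains of chromosome 7. The resistant list divided this stretch by 2 inner borders. Slc7a9, a cystine transporter subunit of kidney and gut, shared a 15 kb resistant-only loop with its neighbour Tdrd12, which was a weak call (caller's p 0.0349).

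**Figure D4:**
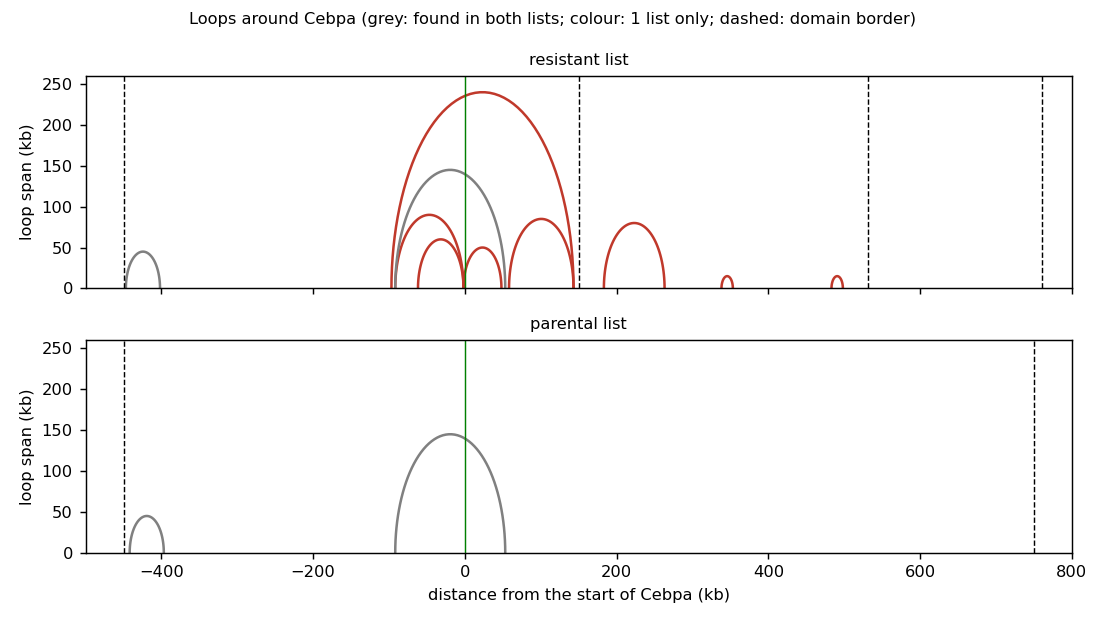
Loops around Cebpa as arcs between their anchors, whose height is the loop span in kb, in the resistant list (top) and the parental list (bottom), against the distance from the start of Cebpa (green line). Grey arcs were found in both lists, red arcs in the resistant list only, and dashed lines are borders; the resistant list alone has a border at 151 kb and arcs from the Cebpa bin to both sides.

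Beyond the Cebpa domain the window was poor in genes. Pop4, a protein subunit of RNase P and RNase MRP, had a 95 kb resistant-only loop (caller's p 5.07e-05). From 36330001 to 37700000 the resistant list held 4 loops of 150 to 305 kb with no gene end at either anchor, and the p-values lay between 0.00389 and 0.0434. The parental list had none there. The 2 parental-only loops of the window joined bins at 38060001 and 38130001 (70 kb, caller's p 0.000363) and touched Zfp939, a zinc finger gene (25 kb, caller's p 0.0286). The window had 8 borders in resistant and 7 in parental cells, of which 4 and 3 had no partner in the other list, and the median separation score of its domains was -0.28 and -0.34.

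The window of 135 to 140 Mb had 16 resistant and 6 parental loops, and its surplus lay in weak calls. Among the 50% of each list with the lowest p both lists had 4 loops in this window, and the median rank of its loops was 77.0% in the resistant and 38.3% in the parental list, where higher is weaker. Among the resistant-only loops with a gene the lowest p was that of a 25 kb loop from the end of Clrn3, a clarin-like membrane protein, to the bin shared by the starts of Clrn3 and Ptpre, a receptor tyrosine phosphatase (caller's p 5.93e-07). A 75 kb loop began at the start of Inpp5a, a phosphatase that ends inositol trisphosphate signals (caller's p 2.7e-06). Loops at Cfap46, a ciliary protein (caller's p 0.0033), and Glrx3, a glutaredoxin of iron handling (caller's p 0.0125), were weaker. Ptpre also kept a 90 kb loop in both lists, with a caller's p of 3.97e-07 in resistant and 3.19e-09 in parental cells. Both lists had 6 borders in this window, and 3 in each had no partner. A parental domain from 135750001 to 137480000 had 4 resistant loops and no parental loop inside it.

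The window of 95 to 100 Mb had 27 resistant and 18 parental loops, and here the surplus held among strong calls, with 19 and 12 loops among the 50% with the lowest p. A 100 kb resistant-only loop reached an end of Map6, which stabilises microtubules (caller's p 1.68e-06), and a 105 kb loop reached an end of Gab2, a docking protein of receptor tyrosine kinase signalling (caller's p 7.65e-06). Thap12, a THAP domain protein, had a pair of resistant-only loops. One ran 45 kb to Emsy, which encodes a partner of BRCA2 (caller's p 0.000116), and the other ran 215 kb to Lrrc32, the receptor GARP that presents latent TGF-β, and its neighbour Gucy2d (caller's p 0.000143). The parental domain around these genes, 98100001 to 98710000, contained 7 resistant and 3 parental loops. Borders numbered 11 in resistant and 8 in parental cells in this window, and the median domain score was -0.13 in both lists.

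The windows where parental loops prevailed did so by 1 or 2 loops. At 115 to 120 Mb there were 10 resistant and 12 parental loops, and among the 50% of each list with the lowest p 5 and 9. The parental-only loop of lowest p with a gene joined Thumpd1, a tRNA acetylation adaptor, to the shared anchor of Eri2 and Rexo5, a pair of exonuclease genes (70 kb, caller's p 1.63e-06). A 145 kb loop joined Knop1 and Iqck to the start of Gprc5b, an orphan G protein-coupled receptor (caller's p 2.23e-06). Pik3c2a, a class II phosphoinositide kinase, had a 105 kb parental-only loop from its own start to the bin shared with Rps13, a ribosomal protein (caller's p 4.42e-05). At 15 to 20 Mb there were 21 resistant and 22 parental loops. There the parental-only loops with the lowest p lay close together, where a bin at 16930001 to 16935000 was joined to Ppp5c, a serine/threonine phosphatase, and Ccdc8 (caller's p 4.11e-07) and to the start of Hif3a, a hypoxia-inducible factor that restrains the others (130 kb, caller's p 2.17e-06). A further loop at Ppp5c spanned 45 kb (caller's p 3.57e-06).

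Of the loops found in both lists, the 5 with the lowest p in the parental list included a 75 kb loop at Gdpd5, a glycerophosphodiester phosphodiesterase, with a caller's p of 2.73e-09 in resistant and 1.97e-10 in parental cells. Another joined Tm2d3 and Pcsk6, a proprotein convertase, over 350 kb, with p-values of 1.31e-08 in resistant and 2.99e-10 in parental cells. The Fam53b loop of 150 kb had 2.91e-05 in resistant and 2.64e-10 in parental cells. The remaining pair, of 125 and 205 kb, had no gene end at an anchor. Among resistant-only loops, that with the lowest p on the chromosome ran 100 kb to Rhcg, an ammonium transporter of epithelia (caller's p 1.6e-10). Rhcg was touched in both lists, since it also had 1 parental-only loop, to Plin1, which coats lipid droplets (caller's p 1.55e-05), and 1 loop in both. Ceacam1, an adhesion molecule of epithelia and immune cells, had a 55 kb resistant-only loop from the bin at 25420001 to 25425000 (caller's p 1.7e-09), and the same bin had a 120 kb resistant-only loop to the next gene of the family, Ceacam2 (caller's p 9.4e-07). The parental domain that contains both, 24990001 to 25680000, held 7 resistant and 2 parental loops. On the parental side the loop of lowest p ran 55 kb from Qprt, of NAD synthesis, and Spn (caller's p 2.75e-10), followed by a 185 kb loop to the Micalcl promoter shown above (caller's p 6.14e-09) and, with others that had no gene, by a 250 kb loop from Spon1, an extracellular matrix protein (caller's p 1.13e-08).

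Gene ends lay within 5 kb of an anchor bin in 62.3% of the resistant loops (57.7 to 66.8) and 64.8% of the parental loops (59.6 to 69.9) of chromosome 7, against 51.3% and 52.3% on the other chromosomes. In resistant and parental cells 105 and 95 loops had genes at both anchors, 176 and 130 at 1 anchor and 170 and 122 at neither, differences of 10, 46 and 48 loops. Of 2025 protein-coding genes on the chromosome, 443 had a resistant loop and 383 a parental loop, 234 of them both. A difference of at least 2 condition-specific loops toward resistant cells was found for 23 genes, 1.14%, against 1.09% of the 21523 genes of all chromosomes. Toward parental cells it was found for 14 genes, 0.691%, against 1.21%. Neighbouring genes at 1 anchor count the same loop, so these genes are not independent.

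Nfatc2ip had the same difference as Cebpa, with 3 resistant-only loops, no parental-only loop and 1 loop in both lists. Nfatc2ip encodes a partner of the T cell factor NFATc2, and among its loops were one to Sh2b1, an adaptor of insulin and leptin receptor signalling (caller's p 1e-05), and one to a bin 135 kb away (caller's p 4.04e-06). Loops in both directions from the anchors of Ilk, the integrin-linked kinase, were resistant-only (caller's p 5.16e-06 and 0.00112) and were shared with its neighbours Rrp8, Taf10 and Tpp1. P2ry6, a receptor for UDP, had a 25 kb resistant-only loop (caller's p 2.55e-08) and a 345 kb loop to Fchsd2 and Atg16l2 (caller's p 0.000185). Mob2, whose promoter held the forkhead motif, had 1 resistant-only loop of 385 kb at its start (caller's p 2.01e-07) and 1 at its other end to Dusp8, a phosphatase of MAP kinases (caller's p 0.0108). Rdh13, a retinol dehydrogenase, had 2 long resistant-only loops of 400 and 300 kb (caller's p 7.53e-06 and 1.63e-06). Bcat2, the mitochondrial aminotransferase of branched-chain amino acids, had 2 (caller's p 4.17e-06 and 0.000795), and so did Tgfb1i1, the focal adhesion protein Hic-5, with its neighbour Armc5 (caller's p 6.78e-06 and 8.36e-06).

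Toward parental cells the largest difference on the chromosome was 2 loops. Micalcl had 2 parental-only loops from the bin of its promoter (caller's p 6.14e-09 and 0.00421) and no resistant loop. Mtmr10, a myotubularin-related protein, had 2 at its start (caller's p 1.3e-06 and 0.000691) and no resistant loop. Gprc5b kept 1 loop of 230 kb in both lists (caller's p 3.25e-06 in resistant and 1.01e-08 in parental cells) beside 2 parental-only loops. Zc3h4, which limits noncoding transcription, Rnh1, the ribonuclease inhibitor, Mettl9, a histidine methyltransferase, and Gtf2h1, a subunit of TFIIH, had 2 parental-only and no resistant loops each. The Gtf2h1 loops reached Ldha, lactate dehydrogenase, with its neighbour Ldhc (caller's p 0.000473) and Tsg101, of endosomal sorting (caller's p 0.000629). Slc17a6, a glutamate transporter of neurons, and Gmfg, an actin regulator of leukocytes, had 2 parental-only loops each and loops in both lists besides. Inpp5f and Mcmbp, which share their anchors, and Acte1, an actin-like gene, lacked any resistant loop and had 2 parental-only ones. The promoters with a CTCF core shown above had 1 condition-specific loop each: that of Flt3l was resistant-only and 15 kb long (caller's p 0.000202), and that of Psmc4 was parental-only and ran 250 kb to Dll3, a Notch ligand, and Selenov (caller's p 0.00105).

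Clusters of similar genes on chromosome 7 were compared by list, each loop counted once. The whole chromosome had 451 resistant and 347 parental loops. Reads that fit several copies of such genes are hard to place, and their treatment was not stated in any source used here. The 28 Ceacam and Psg genes had 6 resistant and 2 parental loops, none in both lists. Besides Ceacam1 and Ceacam2, resistant-only loops ended at Ceacam9 (caller's p 5.19e-07), Ceacam14 (caller's p 0.0106), Psg16 and Psg29, and parental-only loops at Psg21 and Ceacam19. The 26 kallikreins, secreted serine proteases, had 1 loop, a resistant-only loop of 105 kb that crossed a border and joined Klk14, with Siglece, to Klk10 and Klk11 (caller's p 5.49e-06). The 101 zinc finger genes had 12 resistant and 11 parental loops, with 8 members leaning to resistant and 10 to parental cells. Zfp976 had 2 resistant-only loops, both weak (caller's p 0.03 and 0.0355), and Zfp420 had 2 parental-only loops to its neighbours Zfp27 with Zfp383 and Zfp74 (caller's p 0.0016 and 0.0076). The 176 vomeronasal receptors had 3 resistant and 6 parental loops and the 239 olfactory receptors 6 and 3. The 5 beta globins and 3 genes of the Peg3 imprinted domain had no loop in either list. Smaller lists had few loops: Cyp2 cytochromes 4 resistant and 1 parental, with a resistant-only loop at the end of Cyp2s1 (caller's p 1.04e-07), Trim genes 2 and 4, Ifitm genes 1 and 2, Mrgpr genes 1 and 1, Siglec genes 2 and 1, apolipoprotein genes 1 and 1. The Nlrp genes and the paired immunoglobulin receptors had 1 resistant loop each and no parental loop. Saa3, an acute-phase protein, and its neighbour Saal1 shared 1 resistant-only loop to Hps5 (caller's p 0.00063), and the mucin Muc6 had 1 resistant-only loop within the gene (caller's p 5.36e-05). The median difference between resistant-only and parental-only loops per gene was 0 in every list but the pair of C/EBP genes.

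The imprinted and cancer-related lists were led by few genes. In the Igf2 to Kcnq1 imprinted domain, 14 genes had 5 resistant and 4 parental loops. A bin at 143505001 to 143510000 next to Phlda2, which restrains placental growth, and Nap1l4, a nucleosome assembly protein, had 3 resistant loops and was, with the Cebpa bin, 1 of 2 anchors of chromosome 7 with as many. No parental anchor on the chromosome had more than 2. Chromosome 7 had 845 resistant and 667 parental anchor bins in all. On the other chromosomes 52 of 12543 resistant and 60 of 12062 parental anchor bins had 3 or more loops. The shortest loop of the bin next to Phlda2, 30 kb to Slc22a18, was in both lists, with a caller's p of 1.31e-08 in resistant and 1.05e-08 in parental cells. The other two were resistant-only, 250 kb to Osbpl5 and Mrgprg (caller's p 2.99e-05) and 355 kb across a border (caller's p 0.000131). Th, tyrosine hydroxylase, had a parental-only loop. In the Prader-Willi domain Magel2 was reached by 1 resistant loop, which had a partner in the parental list. At the Ccnd1 locus both lists had 4 loops. Ccnd1, cyclin D1, had 2 resistant and 3 parental loops, of which the shared one of 175 kb had a caller's p of 8.47e-05 in resistant and 1.09e-08 in parental cells.

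The growth and survival list, 17 genes, had 10 resistant and 3 parental loops, 7 of them resistant-only and 1 parental-only. The whole chromosome had 451 and 347 loops, with 296 resistant-only and 192 parental-only. The list was chosen with earlier results of these data known, so its lean is a description only. Wee1, the kinase that holds cells before mitosis, had 2 resistant-only loops of 45 and 115 kb beside the gene (caller's p 0.000205 and 0.0135). Ilk was described above, and Rras, a small GTPase (caller's p 0.00291), Fgfr2, a growth factor receptor (caller's p 0.0147), and Parva, a partner of Ilk (10 kb, caller's p 0.0494), had 1 resistant-only loop each, the last a call just inside the list's largest p of 0.0497. Igf1r, the insulin-like growth factor receptor, and Furin, a convertase, had 1 resistant loop each with a partner in the parental list, and Bax, which promotes apoptosis, had 1 parental-only loop (caller's p 4.71e-06) beside a shared one. Among 11 genes of gemcitabine handling and DNA repair the counts were 4 and 4 loops. Slc28a1, a concentrative nucleoside transporter that takes up pyrimidine nucleosides, had the same 170 kb loop in both lists (caller's p 0.000291 in resistant and 1.64e-07 in parental cells), and Lig1, the replicative DNA ligase, had 1 resistant-only loop (caller's p 1.4e-05). Ercc1, of excision repair, and Pold1, the catalytic subunit of DNA polymerase delta, had 1 loop in each list. The 12 epithelial and foregut genes had 6 resistant and 6 parental loops, with resistant-only loops at Ceacam1, Rhcg and the shared anchor of Dmkn and Krtdap, and parental-only loops at Rhcg, at Foxa3, a forkhead pioneer factor (15 kb, caller's p 0.000294), and at Plekha7, a junction protein (caller's p 0.000195).

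Domains on chromosome 7 were more numerous in resistant cells, 250 against 222, a ratio of 1.13 that ranked 2 of 20, again after chromosome X at 1.18. The other chromosomes together had a ratio of 1.05, 3946 and 3775 domains. The median size on chromosome 7 was 480 kb in resistant and 490 kb in parental cells, a difference of 1 bin. The upper end differed more. Domains above 2 Mb numbered 1 and 6, the largest measured 2720 and 3780 kb, and the mean size was 563.6 and 632.4 kb. The largest resistant domain, 52020001 to 54740000, lay within the largest parental one, 52010001 to 55790000. On other chromosomes the resistant and parental numbers of domains above 2 Mb differed in either direction, such as 9 and 18 on chromosome X and 7 and 1 on chromosome 8.

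**Figure D5:**
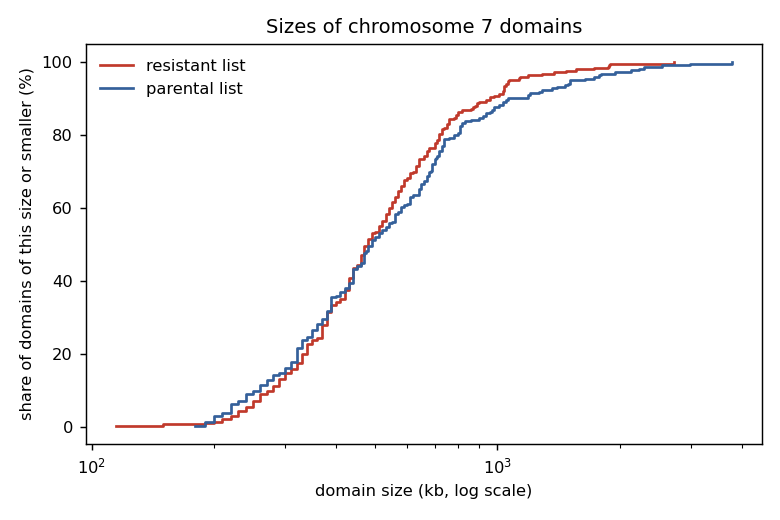
Cumulative share of chromosome 7 domains (vertical axis, percent) at or under a given size (horizontal axis, kb, log scale) in the resistant list (red, 250 domains) and the parental list (blue, 222 domains). The curves meet near the medians of 480 and 490 kb, and the parental curve runs lower above them, out to 3780 kb.

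Most borders were found in both lists within 20 kb, but for resistant cells the share was below that of the other chromosomes together. On chromosome 7, 179 borders were shared, 71.3% of the 251 resistant borders (65.3 to 76.8) and 80.3% of the 223 parental borders (74.4 to 85.3). The other chromosomes together had 78.9% and 82.5%. The resistant share ranked 18 of 20 from the highest, with chromosome 6 at 70.2% and chromosome X at 63.0% below it, and the parental share ranked 15. Borders without a partner numbered 72 in resistant and 44 in parental cells on chromosome 7, and over the whole series 21.5% of resistant and 17.6% of parental borders had none. More than 100 kb from any border of the other list lay 58 resistant and 30 parental borders of chromosome 7. No count at this distance is given here for the other chromosomes. More resistant borders than parental ones were found in 18 of 30 windows, fewer in 3 and equal numbers in 9. At 15 to 20 Mb, where parental loops led by 1, there were 9 resistant and 5 parental borders, and at 25 to 30 Mb, likewise, 13 and 10.

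The 5 resistant borders farthest from any parental border all lay inside parental domains above 2 Mb, since only large domains leave room for such distances. The farthest, at 77520000, lay 1380 kb away, and a second at 76950000, near Agbl1, a tubulin deglutamylase, lay 1040 kb away in the same parental domain of 2990 kb. In this domain 6 resistant loops and 1 parental loop were found. The next, at 14340000, was 1090 kb away inside a parental domain of 2230 kb, which had 4 resistant borders within it and 8 resistant loops against 1 parental loop. Another at 54740000, 1050 kb away, cut the largest parental domain, where both lists had 4 loops. The border at 20460000, 980 kb away, lay among vomeronasal receptor genes in a parental domain of 2550 kb with 98 genes, where parental loops prevailed, 7 resistant against 10 parental. Parental borders without a partner lay closer to the resistant ones, at most 710 kb away, at 60600000, and 440 kb at 50380000 near Nell1, a secreted growth protein. The others in the first 5 were at 5815000, near Vmn1r63, at 93360000 and at 15480000. These distances are bounded by the size of the resistant domains, of which 1 exceeded 2 Mb.

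Separation scores were nearly the same in both lists. The median was -0.22 over the domains of chromosome 7 in resistant and in parental cells, rank 2 of 20 in both lists counted from the highest, with chromosome X higher. No source used here states whether a high score marks a firm or a faint border. At the 117 left borders placed identically by the lists, Pearson's r between the paired scores was 0.947, and the median difference, resistant minus parental, was -0.04, with the lower score in the resistant list in 76.1% (67.3 to 83.5) and in 69.2% of 2016 such borders of the other chromosomes. The difference between the lists on chromosome 7 thus had the size and direction found on the other chromosomes, where the median was -0.04 as well.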

How the data were processed

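The authors deposited 1 loop list and 1 domain list per condition. Per the file headers, a p-value comes with every loop and a separation score with every domain. Per the submitters' processing notes BWA was used, with the builds mm10 and hg19 named. The sources used here give no caller, no settings and no pooling of the 3 Hi-C samples per condition, and the labels name gemcitabine where the series text names doxorubicin. The 48 samples of other assays were not analysed here. Loops, domains and gene lists were described with Python 3.11.15, pandas 2.3.3, NumPy 2.4.6 and SciPy 1.17.1. Members and lists were chosen with earlier results of these data known.

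Loops matched when both anchors lay within 10 kb, borders within 20 kb. Genes were protein-coding genes of RefSeq on GRCm38.p6 with an end within 5 kb of an anchor bin. Genes starting before 3 Mb, 139 in all, were left out after their positions were seen. Of the 2025 genes of chromosome 7, 1742 matched the promoter table. Condition-specific loops of lowest p were named in the windows of largest difference, with up to 12 genes per direction and list members with a loop, except predicted genes with symbols such as Gm and digits. The promoters shown were picked after their loops were seen. Intervals are exact Clopper-Pearson 95% intervals. No test between conditions was made. The matching steps were tested on simulated data.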

Additional observations from a re-analysis of the deposited data

How the results depend on the processing

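No paired analysis was possible because each condition has 1 list without values per replicate, and leaving out a replicate could not be run either. Of 64 values recomputed under other settings 38 stayed within the margin set for them and 26 moved. The surplus of resistant loops and domains kept its sign wherever it was recomputed. The domain surplus was not recomputed in the 50% of lowest separation score. Of the 250 resistant and 222 parental domains, 219 and 187 were in the 50% of highest score, so fewer resistant than parental domains remained. The median domain size difference of -10 kb, resistant minus parental, was 0 among domains of 2 Mb or less. The surplus of 104 loops was 36 in the 50% of each list with the lowest p and 32 among loops of at most 250 kb without the 25% of highest p, a ratio of 1.12 in place of 1.30. The last setting, gene starts and the 50% of lowest separation score were chosen after seeing the data. In the 50% of lowest p 48.3% of resistant and 57.1% of parental loops were in both lists, and with identical bins 16.9% and 21.9%. Shared borders were 47.0% and 52.9% at identical positions, 62.5% and 70.4% within 10 kb, and 56.9% and 54.1% in the 50% of lowest score, where the resistant share was the higher one. A gene end lay inside an anchor bin in 30.8% of resistant and 38.9% of parental loops, within 10 kb in 72.5% and 75.5%, gene bodies within 5 kb in 86.3% and 87.3%, and gene starts in 51.0% and 55.3%. In the 50% of lowest p the window of largest resistant excess started at 95 Mb. That of largest parental excess started at 15 Mb with lists of equal length, 17.5 Mb with moved windows, 28 Mb with 2 Mb windows and 20 Mb with 10 Mb windows, and in each it rested on 4 loops or fewer. Read depth and copy number of chromosome 7 were not analysed here, and their part in the counts was not tested.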
